A study of Mus musculus with 24 samples.

Results

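Among 25697 probes on a mouse expression bead array, 100 probes had a signal that was similar in kidney and heart and lower in brain on every array. They were chosen from the raw signals on the log2 scale. Probes whose kidney and heart medians lay under 1 apart were kept, which left 23500. The gap of each was then taken as the lowest of its 16 kidney and heart signals minus the highest of its 8 brain signals, and the 100 probes with the widest gap are the members described here. They carry 80 named genes, and 3 member probes have no gene name in the annotation used. The tissue pattern is therefore how the members were found. It is given below as a description, with no test.

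The arrays came from 8 mice of the C3HeB/FeJ strain at 18.5 weeks of age. In 4 of them, called heterozygous here, 1 copy of Kctd1 carried the L27N substitution, and the other 4 were wild type. Total RNA of kidney, heart and brain of each mouse was hybridised to an array of its own, which gives 24 arrays, with 4 heterozygous and 4 wild type arrays per tissue. The design text counts 5 wild type mice, and arrays of 4 were analysed here. Kctd1 is the gene of a transcriptional repressor with a BTB domain, and its own level was not analysed here. Each array holds the RNA of a whole organ with all its cell types.

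The tissue labels were checked against marker genes. Of 27 probes of kidney markers, 16 were higher on all 8 kidney arrays than on every heart and brain array, among them those of Umod and Slc34a1. For heart markers this held for 25 of 25 probes, and for brain markers for 31 of 39, each in its own organ. The detected probes numbered 10692 to 11372 per kidney array, 11408 to 12649 per heart array and 12358 to 12979 per brain array at a detection p under 0.05. The median raw signal was 102 to 106 on kidney arrays, 110 to 120 on heart arrays and 109 to 118 on brain arrays.

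Kidney and heart are among the organs that burn the most fatty acid. In their mitochondria, acyl groups enter through the carnitine shuttle, are shortened by acyl-CoA dehydrogenases and pass their electrons through the electron transfer flavoprotein to the respiratory chain. The brain runs mainly on glucose and, in fasting, on ketone bodies. Branched chain amino acids and odd-chain products are broken down in mitochondria by a related set of dehydrogenases, and peroxisomes handle very long and branched fatty acids and the hydrogen peroxide that this yields.

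The promoters of the member genes of fatty acid oxidation are shown because these 5 genes hold 7 of the member probes. Each is the 250 bases before the start site, read 5′ to 3′ on the strand of the gene, from RefSeq on GRCm38.p6. Capitals mark AGGTCA or its reverse complement, the half-site of nuclear receptors such as the peroxisome proliferator-activated and estrogen-related receptors.
Etfb, chr7:43443822-43444071, plus strand: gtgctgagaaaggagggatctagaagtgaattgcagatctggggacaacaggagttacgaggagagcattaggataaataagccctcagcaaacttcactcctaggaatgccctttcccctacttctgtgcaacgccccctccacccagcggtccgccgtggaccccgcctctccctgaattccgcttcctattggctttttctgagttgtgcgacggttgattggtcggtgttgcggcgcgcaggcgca
Etfa, chr9:55512244-55512493, minus strand: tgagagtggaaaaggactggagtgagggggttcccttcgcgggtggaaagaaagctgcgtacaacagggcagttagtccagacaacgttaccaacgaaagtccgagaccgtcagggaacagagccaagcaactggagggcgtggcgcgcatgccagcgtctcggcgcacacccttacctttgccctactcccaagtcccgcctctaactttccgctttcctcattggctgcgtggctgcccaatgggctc
Acadm, chr3:153944644-153944893, minus strand: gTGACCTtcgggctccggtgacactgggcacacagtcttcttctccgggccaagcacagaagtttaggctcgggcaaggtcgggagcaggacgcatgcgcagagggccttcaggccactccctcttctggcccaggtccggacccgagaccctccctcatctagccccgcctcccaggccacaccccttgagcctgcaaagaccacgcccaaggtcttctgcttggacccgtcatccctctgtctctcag
Acads, chr5:115119347-115119596, minus strand: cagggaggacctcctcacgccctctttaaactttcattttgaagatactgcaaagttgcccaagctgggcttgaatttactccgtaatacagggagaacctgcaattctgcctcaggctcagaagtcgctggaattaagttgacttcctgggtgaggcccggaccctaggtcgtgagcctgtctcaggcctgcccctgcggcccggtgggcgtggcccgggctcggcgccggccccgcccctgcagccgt
Cpt2, chr4:107923590-107923839, minus strand: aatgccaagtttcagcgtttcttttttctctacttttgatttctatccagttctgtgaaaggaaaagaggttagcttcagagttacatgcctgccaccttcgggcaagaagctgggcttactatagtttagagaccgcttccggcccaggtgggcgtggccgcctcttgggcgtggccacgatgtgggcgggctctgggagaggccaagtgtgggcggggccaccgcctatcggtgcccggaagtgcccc
Acadm held 1 match, which began 249 bases before the start site, and the other four held none in this window. Over the members, 65 of the 80 genes had a promoter in the table, and AGGTCA occurred on either strand in 11 of them (16.9%), against 14.3% of 13335 genes on the array. GGGCGG, the GC box, occurred in 41 (63.1%), against 6662 of the 13335, and TATAAA in 5 (7.69%), against 13.1%. Matches of different motifs can share at most 1 end base. A match is a run of letters and not a measured site, and these shares carry no test.

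All 100 members were detected on all 8 kidney and all 8 heart arrays. In brain, 89 were detected on all 8 arrays, 6 on some of them and 5 on 0. The median raw signal of a member was 234 to 7101 in kidney, 198 to 10123 in heart and 98.6 to 1600 in brain, with medians over the members of 773, 765 and 173. The gap was 3.81 at the widest and 0.67 at the narrowest, with a median of 1.05; it was 2 or more for 11 members and 1 or more for 54. Of all kept probes, 2.51% had a gap above 0, and of the 8037 kept probes detected in kidney and heart, each on at least 4 of the 8 arrays, 7.30% had. For levels across tissues the 24 arrays were also background-corrected and normalized together. On that scale the median member was 8.63-fold higher in kidney than in brain (2.80 to 140) and 6.02-fold higher in heart than in brain (2.32 to 68.6), while the median over all probes moved by 0.02 in kidney and 0.01 in heart on the log2 scale. Where a member was detected on 0 brain arrays its fold was taken against the lowest detectable signal and is a lower bound. In RNA of whole organs, fewer cells of a type and less RNA per cell cannot be told apart.

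**Figure D1:**
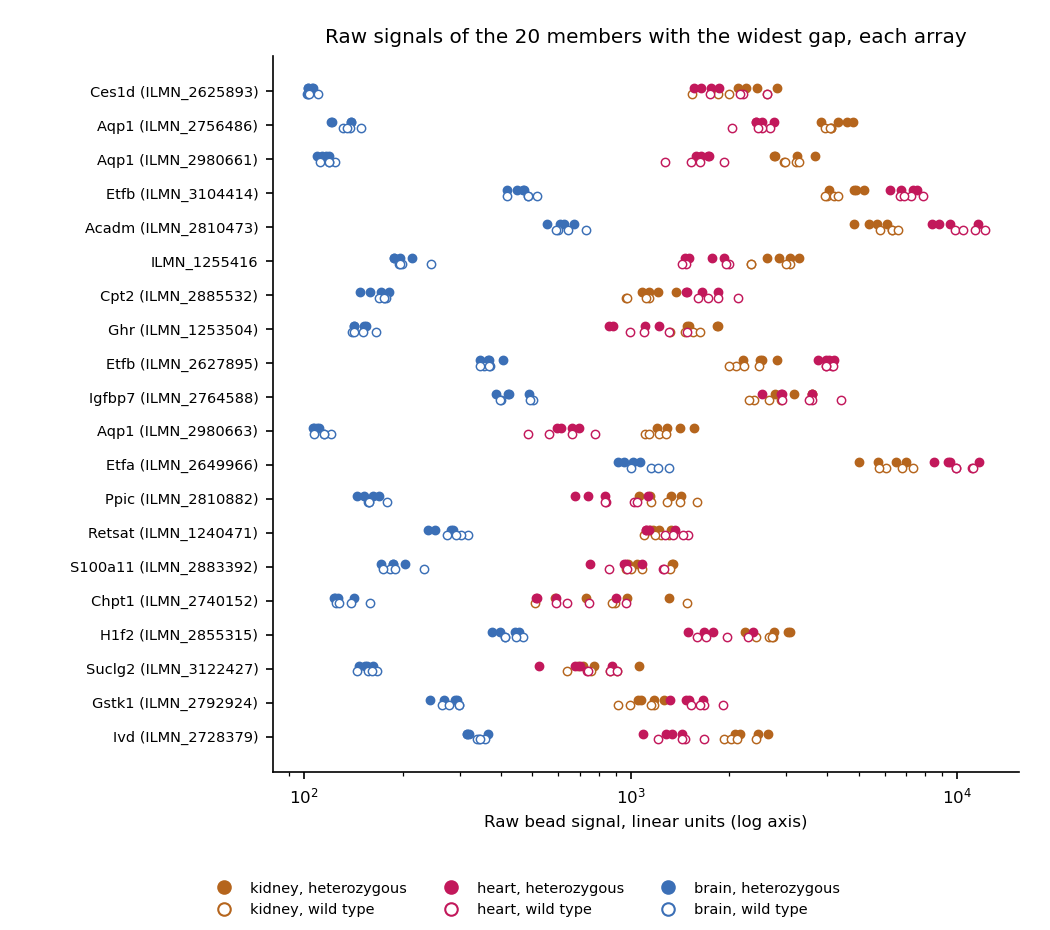
Raw signals (log axis) of the 20 members with the widest gap on each of the 24 arrays, with filled circles for heterozygous and open circles for wild type mice, in kidney, heart and brain. Each row leaves an empty stretch between the brain signals and those of kidney and heart, which is widest for Ces1d, with brain signals of 102 to 110 and kidney and heart signals of 1543 to 2805.

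Ces1d, a carboxylesterase that hydrolyses esters and triacylglycerol, led the members. Its raw signal was 1543 at the lowest, 2195 at the median and 2805 at the highest in kidney, 1563, 1815 and 2621 in heart, and 102, 103 and 110 in brain. The kidney and heart signals overlapped, and in brain the probe was detected on 0 of 8 arrays. Ces1d was at least 108-fold higher in kidney and at least 68.6-fold higher in heart than in brain. Carboxylesterases form a family of close copies, and how far this probe also binds the others was not tested.

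Aqp1, the water channel of the proximal tubule and of endothelium, had 3 member probes. The brightest, ILMN_2756486, was at 3824, 4119 and 4792 (lowest, median and highest) in kidney, 2046, 2496 and 2744 in heart, and 121, 136 and 149 in brain. Every kidney array was above every heart array for all 3 probes. Normalized together, they were 64.3-fold to 140-fold higher in kidney and 21.2-fold to 52.2-fold higher in heart than in brain, and the dimmest of them was detected on 3 of 8 brain arrays. In a list of endothelial markers with 44 probes of 30 genes, the 3 probes of Aqp1 were the only members, 6 probes had a gap above 0, and 21 had a heart median at least 1 above kidney on the log2 scale. Car14, a membrane carbonic anhydrase, and Slc40a1, the iron exporter ferroportin, were grouped with Aqp1 under channels, transport and bicarbonate. Car14 and Slc40a1 were at 9.89-fold and 4.50-fold over brain in kidney, and 8.72-fold and 3.84-fold in heart.

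Fatty acid oxidation gave 7 member probes of 5 genes. Etfb and Etfa encode the subunits of the electron transfer flavoprotein. The brighter Etfb probe, ILMN_3104414, had raw signals of 3937, 4262 and 5175 in kidney, 6245, 7038 and 7891 in heart, and 418, 470 and 518 in brain. Etfa was at 5007, 6277 and 7333 in kidney, 8485, 9918 and 11716 in heart, and 915, 1043 and 1315 in brain. In both, every heart array lay above every kidney array, and every kidney array lay far above the brain arrays. Acadm, the medium-chain acyl-CoA dehydrogenase, was the brightest heart signal of the members, at 8380, 10123 and 12149, against 4825, 5949 and 6595 in kidney and 553, 616 and 732 in brain. Cpt2, the inner-membrane step of the carnitine shuttle, was at 970, 1123 and 1376 in kidney, 1480, 1690 and 2129 in heart and 148, 174 and 182 in brain. Acads, the short-chain dehydrogenase, had 2 member probes, and the brighter was at 318, 399 and 515 in kidney, 570, 703 and 825 in heart and 109, 117 and 128 in brain.

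The second Acads probe, ILMN_1256725, was detected on 0 of 8 brain arrays, and was at least 8.61-fold higher in kidney and at least 5.76-fold higher in heart than in brain. Over the other 6 probes the fold over brain was 7.60 to 18.5 in kidney and 7.43 to 20.2 in heart. In raw signal the heart arrays were all above the kidney arrays for 6 of the 7. Among all kept probes detected in both organs 39.2% had this order and 7.07% the opposite one, and since the rule used both tissues nothing is read from that. Normalized together, the same order held for 1 of the 7, and their median kidney minus heart difference was −0.08 on the log2 scale.

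The limit on the kidney and heart medians decided which genes of this pathway are members. Of the 31 genes of a fatty acid oxidation list, 28 were on the array with 50 probes, and 38 of those were detected in kidney and heart. A gap above 0 was found for 21 of the 38, against 8.29% of all probes detected in both organs. The rule used this gap, and the list was chosen with earlier results of these data known. These shares are therefore a description, with no test. Of the 50 probes, 22 had a heart median at least 1 above that of kidney and were left out by the rule, while 2 had the reverse. Decr1, a dienoyl-CoA reductase of unsaturated fatty acids, was such a case, with raw medians of 420 in kidney, 990 in heart and 147 in brain. Acadvl, the very-long-chain dehydrogenase, was at 498 in kidney, 3022 in heart and 226 in brain, and Etfdh, which takes electrons from the flavoprotein, at 272 in kidney, 1791 in heart and 153 in brain. So the fatty acid oxidation members are, by the rule, probes without a larger heart excess.

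**Figure D2:**
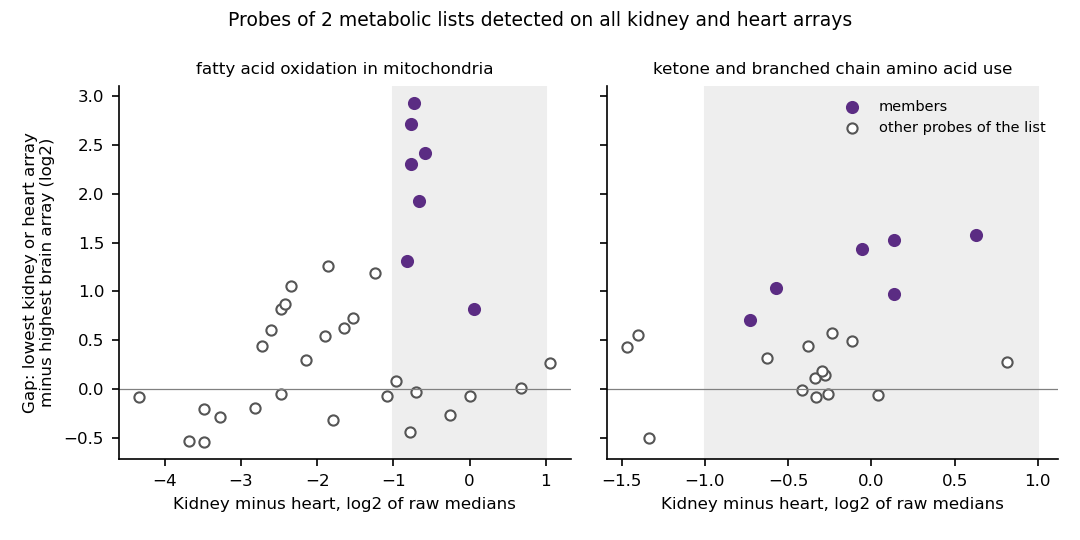
Gap (vertical axis, log2) against the kidney minus heart difference of raw medians (horizontal axis, log2) for the probes of a fatty acid oxidation list (left) and of a ketone and branched chain amino acid list (right) that were detected on all kidney and heart arrays. Filled points are members, open points other probes, and the shaded band is the limit of 1 either way; 22 of the 50 probes of the first list had heart at least 1 above kidney, against 3 of 32 of the second.

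Branched chain amino acid and ketone use gave 6 members, 1 probe per gene. Hibadh, 3-hydroxyisobutyrate dehydrogenase of valine breakdown, was the brightest kidney signal of the members, at 6612, 7101 and 8052 in kidney, 5873, 6469 and 7119 in heart and 1463, 1600 and 2035 in brain. Oxct1, the transferase that lets tissues use ketone bodies, was at 4691, 5619 and 6192 in kidney, 5125, 5840 and 6802 in heart and 1294, 1498 and 1732 in brain. Hibadh and Oxct1 had the highest brain medians of the members. Hibadh was 5.28-fold higher in kidney and 2.98-fold higher in heart than in brain, and Oxct1 4.60-fold and 3.02-fold. Ivd, isovaleryl-CoA dehydrogenase of leucine breakdown, was higher in kidney, at 1938, 2139 and 2627, against 1091, 1385 and 1682 in heart and 315, 341 and 365 in brain. Bckdha, the E1 alpha subunit of the branched chain ketoacid dehydrogenase, Aldh6a1, of valine breakdown, and Mcee, methylmalonyl-CoA epimerase, completed the group, with folds over brain of 2.98 to 7.31 in kidney and 3.49 to 7.77 in heart. In this list of 26 genes, 22 were on the array with 32 probes; 16 probes had a gap above 0, among them 14 of the 20 that were detected in both organs and lay within the limit. Pcca, Dbt and Bdh1 of this list were not members, with gaps of 0.58, 0.49 and 0.44, against 0.67 for the last member.

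Mitochondria held further members. Suclg2, the GTP-linked beta subunit of succinyl-CoA ligase, was at 636, 765 and 1064 in kidney, 526, 738 and 907 in heart and 145, 156 and 167 in brain. Pdp2, a phosphatase that activates pyruvate dehydrogenase, was 7.61-fold higher in kidney and 3.08-fold higher in heart than in brain. In a citric acid cycle and pyruvate list of 39 probes these 2 were the members, and 22 probes had heart at least 1 above kidney. Aldh2, which oxidises acetaldehyde, had raw signals of 3736, 4628 and 5352 in kidney, 2386, 2616 and 3294 in heart and 859, 925 and 1231 in brain. Aldh5a1, which oxidises the succinate semialdehyde formed from GABA, was at 437, 507 and 618 in kidney, 443, 528 and 652 in heart and 144, 153 and 200 in brain. Tspo, the translocator protein of the outer mitochondrial membrane, had 3 member probes that were 10.0-fold to 12.5-fold higher in kidney and 6.10-fold to 7.11-fold higher in heart than in brain. Hspa9, the mitochondrial Hsp70, and Mrpl12, a mitochondrial ribosomal protein, showed some of the smallest differences, at 2.80-fold and 3.59-fold in kidney and 3.17-fold and 3.12-fold in heart.

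Peroxisomal and redox enzymes formed the next group. Catalase (Cat), which breaks down hydrogen peroxide, was at 598, 692 and 819 in kidney, 402, 543 and 655 in heart and 134, 143 and 185 in brain. Ephx2, the soluble epoxide hydrolase, was at 302, 379 and 469 in kidney, 572, 635 and 753 in heart and 113, 120 and 124 in brain, so that every heart array was above every kidney array. Pxmp2, a peroxisomal membrane channel, had the same order and the lowest kidney minus heart difference of all members when normalized together, −0.76 on the log2 scale. Scp2, a sterol carrier with a peroxisomal thiolase form, had 2 member probes, at 6.66-fold and 5.95-fold in kidney and 3.55-fold and 4.06-fold in heart. Gstk1 and Gsta3, glutathione transferases, were at 7.43-fold and 17.4-fold over brain in kidney, and 7.66-fold and 6.07-fold in heart; Gsta3 belongs to a family of close copies. Msrb1, a methionine sulfoxide reductase, had 2 member probes, at 10.3-fold and 8.73-fold in kidney and 5.30-fold and 4.89-fold in heart. A peroxisome list of 26 genes held 2 member genes and a detoxification list of 36 genes held 5, with 10 of 34 and 20 of 43 probes having a gap above 0.

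Among enzymes of lipids and vitamins, Chpt1, which makes phosphatidylcholine in its final step, had 3 member probes, at 25.2-fold to 28.9-fold in kidney and 11.8-fold to 13.5-fold in heart. Retsat, retinol saturase, had 2 member probes. The brighter, ILMN_1240471, was at 1099, 1205 and 1333 in kidney, 1112, 1312 and 1501 in heart and 239, 284 and 318 in brain. These raw signals are close to level between the 2 organs. The other, ILMN_2769680, was at 254 to 336 in kidney, 295 to 434 in heart and 123 to 149 in brain. Normalized together, all 9 member probes of this group were higher in kidney than in heart. The group also took in Ces1d, Naprt and Mlxipl. Dgat2, which completes triacylglycerol, was at 6.53-fold in kidney and 6.00-fold in heart. Mlxipl, the glucose-responsive transcription factor ChREBP, had the largest excess of kidney over heart when normalized together, 1.83 on the log2 scale, with raw signals of 422, 473 and 550 in kidney, 225, 238 and 279 in heart and 105, 113 and 125 in brain, where 4 of 8 arrays detected it.

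Receptors and secreted factors were also present. Ghr, the growth hormone receptor, was at 1321, 1529 and 1849 in kidney, 861, 1103 and 1489 in heart and 140, 147 and 166 in brain, which made it 34.4-fold and 17.4-fold higher than in brain. Agtr1a, the angiotensin II receptor, was dimmer, at 252, 318 and 398 in kidney, 226, 291 and 369 in heart and 103, 107 and 114 in brain, where 1 array detected it. Igf2r, which carries mannose 6-phosphate proteins to lysosomes, was at 302, 408 and 474 in kidney, 504, 535 and 664 in heart and 150, 159 and 173 in brain. These 3 were the only members of a list of 38 hormone and growth factor genes. Igfbp7, a secreted protein that binds insulin-like growth factors, was at 2312, 2832 and 3604 in kidney, 2531, 3223 and 4413 in heart and 388, 422 and 501 in brain, and it was the only member of a list of 40 fibroblast and matrix genes. Fcgrt, the receptor that recycles immunoglobulin G, and Il13ra1, a receptor subunit for interleukin 13, were at 8.93-fold and 7.46-fold in kidney and 6.56-fold and 6.13-fold in heart.

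The remaining members had mixed roles. Ppic, cyclophilin C, was 24.0-fold and 11.4-fold higher in kidney and heart than in brain, S100a11, a calcium-binding protein, 14.6-fold and 9.23-fold, and the linker histone H1f2 10.0-fold and 4.91-fold. Nme2, a nucleoside diphosphate kinase with a close copy in Nme1, had 2 member probes and one of the highest brain levels, at 1103, 1205 and 1430 for ILMN_2705935, against 4259, 4359 and 4964 in kidney and 4201, 4758 and 5732 in heart. Entpd5, Tmem205, Cobll1, Crtap and Mcrip2 had 2 member probes each. One of the 3 probes without a gene name, ILMN_1255416, had the sixth widest gap, with raw signals of 2340, 2923 and 3268 in kidney, 1437, 1643 and 2001 in heart and 188, 197 and 245 in brain. The last members inside the rule were Pxmp2, Abhd1, Yif1a, Cobll1 and Itgb6, with gaps of 0.69, 0.69, 0.68, 0.68 and 0.67, and the first probes outside were Tmem150a, ILMN_2637233, Hint3, Abcd3 and ILMN_2654186, with 0.66, 0.65, 0.65, 0.64 and 0.64. These values run on without a step.

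Taking 6 metabolic lists together, 22 of the 100 member probes belonged to them, against 0.856% of all probes and 1.61% of the 9790 probes detected in kidney and heart. These lists were chosen with earlier results of these data known, and the shares are a description. No member belonged to the lists of antigen presentation, complement, interferon response, blood cells and macrophages, smooth muscle, mesodermal transcription factors, apoptosis and p53 targets, circadian clock, KCTD genes, or markers of the 3 organs.

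How level the members were between kidney and heart depended on the scale. In raw medians 53 members were higher in kidney and 47 in heart, and the arrays of the organs overlapped for 63. With the 24 arrays normalized together, all kidney arrays were above all heart arrays for 56 members and the reverse held for 7, against 26.9% and 19.4% of the kept detected probes. The median kidney minus heart difference of the members was 0.60 on this scale and 0.05 in raw medians, while over the kept detected probes it was 0.08 and −0.20. The difference was 1 or more for 23 members, all of them higher in kidney. Each of the 100 members kept a gap above 0 after normalization (1.00 at the narrowest) and in the authors' deposited processed values. The members were chosen by the raw gap on these same arrays, so this is a description and no separate support.

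Most further detected probes of the member genes were lower in brain too, but the balance of kidney and heart varied. There were 48 such probes for 32 genes. Of the 32 detected in kidney and heart, 31 had both medians above that of brain and 24 had a gap above 0; the other 16 were not detected in both organs. The exception by medians was Rhoc on ILMN_2749437, at 108 in kidney, 133 in heart and 110 in brain. A further Scp2 probe, ILMN_1221684, was at 255 in kidney, 328 in heart and 225 in brain, with a gap of −0.27. Acadm differed between its probes in the balance of kidney and heart. Its member probe had raw medians of 5949 in kidney and 10123 in heart, whereas a second probe, ILMN_1256019, had 380 in kidney, 2107 in heart and 138 in brain. Etfa likewise had 3 further probes with kidney medians of 655 to 1077 and heart medians of 2878 to 3911. On these dimmer probes heart was several-fold above kidney, and the bright member probes lay within the limit. Lamp2, a lysosomal membrane protein with several splice forms, had a member probe at 1682 in kidney, 1925 in heart and 473 in brain, and of its 3 other probes ILMN_2605666 was at 583 in kidney, 903 in heart and 245 in brain. The other 2 were higher in kidney than in heart. ILMN_3074259 was at 2051 in kidney, 290 in heart and 194 in brain, with a gap of −0.06. ILMN_3153207 was at 1499 in kidney, 357 in heart and 228 in brain, with a gap of −0.22. For Itgb6, an integrin subunit, a second probe was at 929 in kidney, 298 in heart and 107 in brain, and for Rbpms, an RNA-binding protein, one was at 256 in kidney, 985 in heart and 115 in brain. Probe identity thus set whether Acadm, Etfa, Lamp2, Itgb6 and Rbpms counted as level between the organs.

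**Figure D3:**
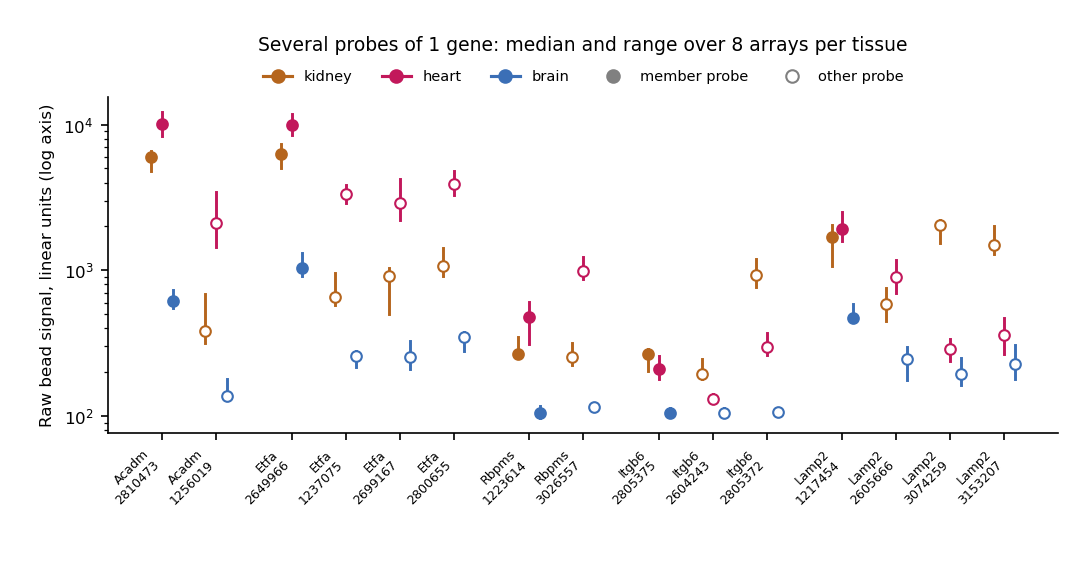
Raw signals (log axis) of probes of Acadm, Etfa, Rbpms, Itgb6 and Lamp2, as the median and range over the 8 arrays of kidney, heart and brain. Filled points are the member probe, and open points the other probes detected on all 8 kidney and all 8 heart arrays. Rbpms ILMN_3099398, detected on 7 kidney arrays, is not shown. The horizontal labels give the gene and the probe number; the second Acadm probe has medians of 380 in kidney and 2107 in heart, and the brain median is the lowest of the 3 at every probe shown.

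The genotype was not used to choose the members, so it was tested, for heterozygous against wild type mice within each tissue, by limma over all detected probes with Benjamini-Hochberg adjustment at 0.05. In kidney 0.273% of 10976 probes passed (30 probes), and 0 of the 100 members did. At an unadjusted p under 0.05 there were 10 members, against 8.52% of all probes, and for 8 members the groups did not overlap, against 4.58%. In heart 0 members and 0% of 12004 probes passed in limma, with 2 members at an unadjusted p under 0.05 against 4.75%, and 1 member without overlap against 2.58%. In brain, where 93 members were tested, 0 members and 0% of 12608 probes passed in limma, with 5 members at an unadjusted p under 0.05 (5.38%) against 7.1%, and 6 without overlap (6.45%) against 3.93%. These shares lay near the background.

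The differences were small. Heterozygous minus wild type ranged from −0.41 to 0.34 on the log2 scale in kidney, from −0.27 to 0.30 in heart and from −0.31 to 0.25 in brain. The median over the members was 0.03 in kidney, −0.0015 in heart and −0.02 in brain, and over all tested probes it was 0.00092, −0.0024 and −0.00098. The 95% interval of the difference lay within 0.5 either way for 85 of 100 members in kidney, 93 of 100 in heart and 91 of 93 in brain, and its farthest bound lay 0.78, 0.64 and 0.53 from 0. Averaged over the members, heterozygous kidneys were at 9.57 ± 0.02 and wild type kidneys at 9.55 ± 0.01, heterozygous hearts at 9.52 ± 0.02 and wild type hearts at 9.52 ± 0.01, and heterozygous brains at 6.74 ± 0.03 and wild type brains at 6.77 ± 0.04 (log2, SD, n = 4 each).

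**Figure D4:**
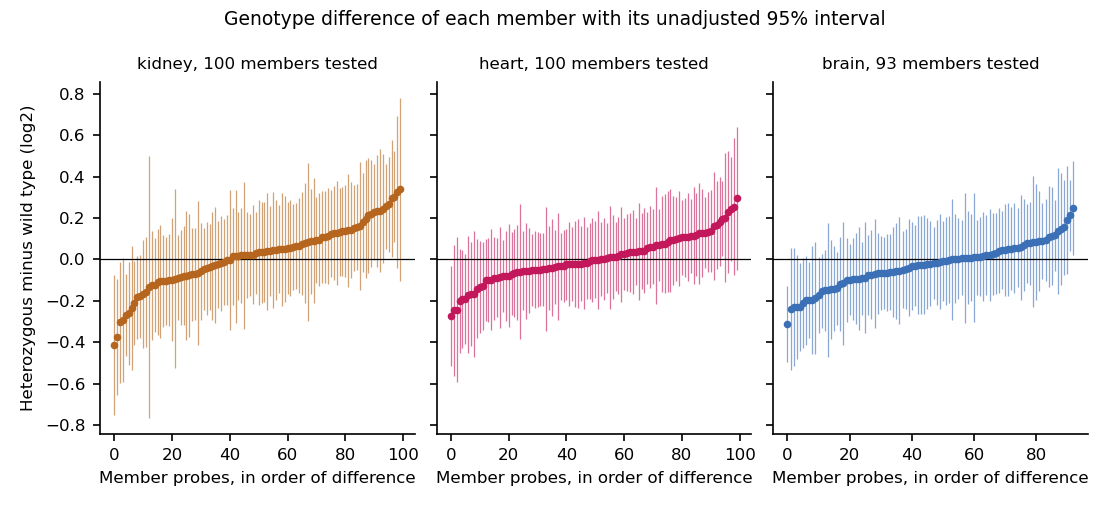
Heterozygous minus wild type difference (log2) of every member tested, with its unadjusted 95% interval from limma, in kidney, heart and brain, ordered by size within each tissue. All points lie between −0.41 and 0.34, and 0 members passed at an adjusted p under 0.05 in any of the 3 tissues.

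In kidney, Ephx2 had the smallest p of the members. Heterozygous kidneys were at 8.30, 8.35, 8.29 and 8.39 on the normalized log2 scale, against 7.95, 7.92, 8.25 and 8.00 in the wild type. The groups did not overlap, and the difference of 0.30 (SE 0.10) had an adjusted p of 0.401 in limma. Acadm was at 12.44, 12.32, 12.39 and 12.27 in heterozygous and 12.57, 12.69, 12.63 and 12.61 in wild type kidney. The groups did not overlap and differed by −0.27 (SE 0.09, limma's adjusted p = 0.422, and 0.0716 to 0.788 over 17 alternatives). On the second Acadm probe the genotypes differed by −0.21 (SE 0.27, limma's adjusted p = 0.874). Rnase4, a secreted ribonuclease, was at 10.17, 9.62, 10.18 and 9.80 in heterozygous and 10.21, 10.42, 10.36 and 10.27 in wild type kidney, again without overlap (−0.37, SE 0.13, limma's adjusted p = 0.429). Among the 7 fatty acid oxidation probes, 5 differences were positive and 2 negative in kidney, with a median of 0.09. By limma 0 of them passed, and the unadjusted p was under 0.05 for 2.

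In heart the smallest p belonged to Tspo on 1 of its 3 probes, ILMN_2727921, at 7.62, 7.42, 7.62 and 7.46 in heterozygous and 8.07, 7.78, 7.79 and 7.57 in wild type heart. The groups overlapped and differed by −0.27 (SE 0.11, adjusted p = 0.927 by limma). The other 2 Tspo probes had differences of −0.08 and −0.0017 there. Phactr4, a regulator of protein phosphatase 1, and the small GTPase gene Rhoc followed with 0.20 (SE 0.08) and 0.24 (SE 0.11), each with an adjusted p of 0.927 in limma. In brain, Mcrip2 on ILMN_2904819 was at 5.35, 5.49, 5.38 and 5.35 in heterozygous and 5.80, 5.65, 5.77 and 5.59 in wild type mice, which is −0.31 apart (SE 0.09, limma's adjusted p = 0.496), and its second probe had 0.08 (SE 0.09). Fahd1, a mitochondrial acylpyruvase, was at 7.57, 7.52, 7.53 and 7.61 in heterozygous and 7.32, 7.43, 7.30 and 7.32 in wild type brain (0.21, SE 0.08, limma's adjusted p = 0.589), and Igf2r had 0.25 (SE 0.11, adjusted p = 0.664 in limma).

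Since each mouse gave both organs, the kidney and heart values were also averaged per mouse. Of 9790 probes 0.0102% passed (1 probe) and 0 members did in limma, with 9 members at an unadjusted p under 0.05 against 6.65%, and 5 without overlap against 3.37%. The leading members were Cobll1 on ILMN_2782634 (−0.28, SE 0.10), Tmem205 on ILMN_2601378 (0.20, SE 0.07) and Acadm (−0.18, SE 0.07), all with an adjusted p of 0.742 in limma. Acadm was at 12.92, 12.71, 12.82 and 12.78 in heterozygous and 12.99, 13.01, 12.93 and 13.02 in wild type mice, without overlap. Kidney minus heart within each mouse asks whether the genotype difference depends on the organ. There 0.0409% of 9790 probes passed (4 probes) and 0 members did in limma, with 6 members at an unadjusted p under 0.05 against 7.08%, and 3 without overlap against 3.92%. Igfbp7 led with 0.40 (SE 0.13, adjusted p = 0.539 in limma), at 0.16, −0.09, −0.21 and 0.20 in heterozygous and −0.48, −0.29, −0.44 and −0.31 in wild type mice. Smagp had −0.31 (SE 0.11) and Ces1d 0.40 (SE 0.14), both with an adjusted p of 0.585 in limma.

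In the pathway lists around the members, 2 probes passed for genotype in kidney, and 0 passed in heart or brain in limma. Neither is a member. Over all 10976 probes tested in kidney 0.273% passed. The lists were chosen with earlier results of these data known, so nothing about the pathways is read from these 2 probes. Fabp3, the fatty acid-binding protein of muscle, was at 7.61, 7.44, 7.49 and 7.74 in heterozygous and 8.38, 8.13, 8.24 and 8.36 in wild type kidney. It fell by 0.71 on the log2 scale (SE 0.11, limma's adjusted p = 0.00822, and 0.00269 to 0.0460 over 17 alternatives). It was 1 of 15 probes tested in the list of fatty acid uptake and storage. Its heart signal was far higher, with a raw median of 14263, next to 331 in kidney and 519 in brain, and in heart the difference was −0.02 (SE 0.08). Bcat1, the cytosolic branched chain aminotransferase, was at 6.53, 6.35, 5.93 and 6.21 in heterozygous and 6.92, 7.18, 7.01 and 7.19 in wild type kidney. It fell by 0.82 on the log2 scale (SE 0.13, limma's adjusted p = 0.0110). It was 1 of 23 probes tested in the ketone and branched chain amino acid list, and it passed under 13 of 17 alternatives. The call was lost without the detection filter (adjusted p = 0.112 in limma), when the array number was a covariate (0.0926), without wild type replicate 2 (0.0529) and without heterozygous replicate 4 (0.0587). In the lists of fatty acid oxidation, peroxisome, citric acid cycle and detoxification, 0 of 39, 26, 32 and 33 probes tested in kidney passed in limma.

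Within a tissue the labels give each array a running number, and the mice follow the same order in kidney and heart: wild type 1, heterozygous 1, wild type 2 to 4 and heterozygous 2 to 4. The number is therefore tied to the mouse, and heterozygous mice stand later in the row. Fitted beside genotype, it passed in limma for 1.28% of 10976 kidney probes and for 2 members, and for 1.22% of 12004 heart probes and 1 member. At an unadjusted p under 0.05 there were 20 members in kidney, against 15.9%, and 18 in heart, against 17.5%. Chpt1 stood out among the members in both organs. In kidney its probe ILMN_2740152 was at 10.30, 9.11, 9.09 and 9.64 in heterozygous and 10.40, 9.80, 9.61 and 8.85 in wild type mice, and changed by −0.22 per array number (SE 0.05, adjusted p = 0.0436 in limma). In heart ILMN_2740149 was at 9.34, 8.94, 8.89 and 8.84 in heterozygous and 9.59, 9.31, 9.02 and 9.06 in wild type mice, and changed by −0.10 (SE 0.02, adjusted p = 0.0463 in limma). On all 3 probes in both organs, wild type 1 and heterozygous 1, the first arrays of the row, were above wild type 4 and heterozygous 2 to 4. Tspo passed in kidney on ILMN_2727920 (−0.13, SE 0.03, adjusted p = 0.0256 in limma) and not in heart (−0.01, SE 0.02). Aqp1 had positive slopes of 0.09 to 0.11 on its 3 heart probes, with adjusted p of 0.0557 to 0.152 in limma, and of 0.02 to 0.03 in kidney. Each of the 3 calls was lost with the replicate block. Replicate numbers rise with the array number within each genotype, so that block leaves little of it to fit and cannot decide the point. The calls also changed with other processing. The kidney count was 0 without wild type 1, heterozygous 1 or wild type 4, and 1 without heterozygous 4. The heart count was 0 with any mouse left out. Mouse and array order cannot be told apart here.

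**Figure D5:**
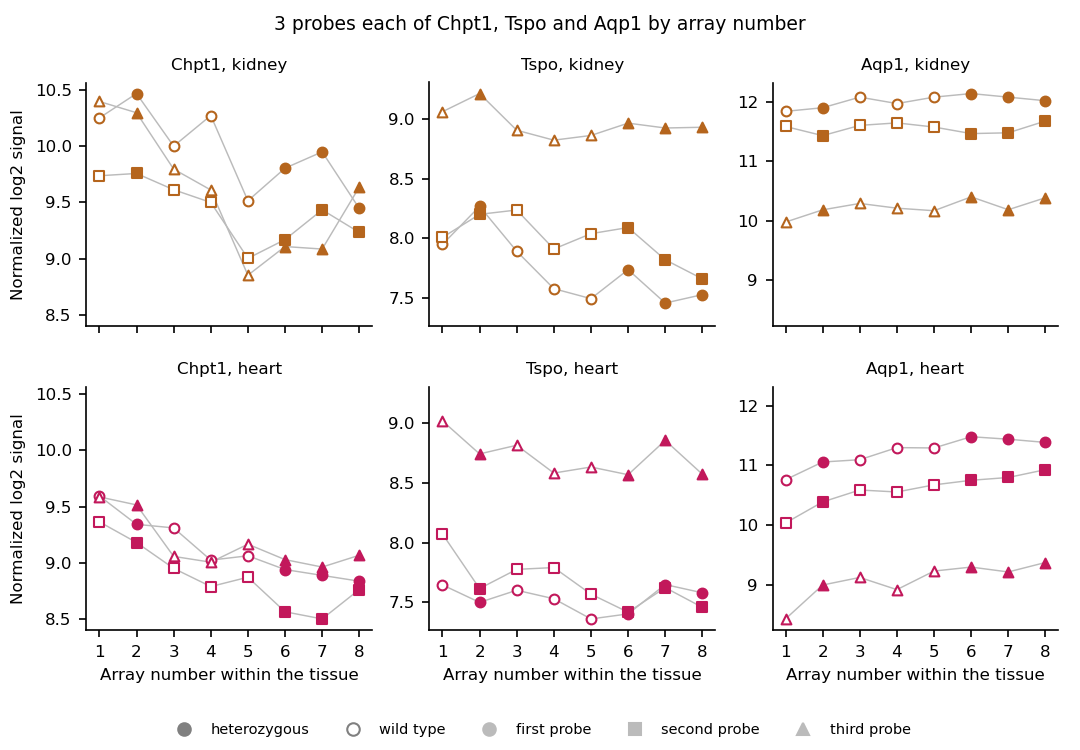
Normalized log2 signal of the 3 member probes each of Chpt1, Tspo and Aqp1 against the array number within kidney (top) and heart (bottom), with filled symbols for heterozygous and open symbols for wild type mice and a marker shape per probe in order of probe number. The Chpt1 signals on arrays 1 and 2 lie above those on arrays 5 to 8 in both organs, and the lowest Aqp1 heart signals are those of array 1.

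The standard deviation within genotype was 0.06 to 0.60 over the members in kidney, with a median of 0.14, and 0.03 to 0.28 in heart, with a median of 0.12. The highest in kidney was Chpt1 on ILMN_2740152 and in heart Chpt1 on ILMN_2740151 (0.28), and the lowest in both was Nme2 on ILMN_2705935. Over all tested probes the median was 0.16 in kidney and 0.15 in heart, and over tested probes of the members' range of levels it was 0.14 and 0.12, so the members as a group were about as variable as other probes of their level.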

How the data were processed

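RNA of kidney, heart and brain was measured on single-colour Illumina bead arrays, 1 per mouse and tissue. The deposited intensity values are raw signals per probe with a detection p-value, exported by the authors with GenomeStudio 2011.1, per the submitters' processing notes. The authors' deposited processed values, of unstated scale, kept the order of the raw signals on 24 of 24 arrays; 23.2 to 26.1% were below 0, and their array medians were 3.20 to 3.21 in kidney, 5.10 to 5.12 in heart and 6.34 to 6.37 in brain. They served as an alternative, as log2 of the value (0 where negative) plus 16. Of the probes, 23978 had 1 gene symbol and 1719 none.

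Members and gene lists were chosen with earlier results of these data known. For the genotype tests, the 8 arrays of each tissue went through neqc (background correction, offset 16, quantile normalization, log2), probes detected on at least 4 of them were kept, and these were fitted with limma 3.58.1 in R 4.3.3 (lmFit, eBayes, Benjamini-Hochberg adjustment over all kept probes). The fit was tested on simulated data. The kidney and heart mean, and their difference, were taken per mouse before the fit. The text names the 20 widest gaps, the 5 probes on each side of the limit of 100, the 3 smallest p per comparison, the 5 brightest members, list members, genes with several member probes and the extremes of spread; other names were chosen after their values were seen. The number of arrays limits the precision.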

Additional observations from a re-analysis of the deposited data

Results flagged for a closer look

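In 96 groups of 4 or 8 arrays, 5 held a value far from the others, where chance gives about 1 in 20. The mean of the members was 9.53 in wild type replicate 2 in kidney, against 9.55 to 9.56 in the other 3 wild type mice (log2). The Aqp1 probe ILMN_2756486 had a raw heart signal of 2046 in wild type replicate 1, against 2419 to 2744 on the other 7 heart arrays. The Etfb probe ILMN_2627895 had a raw brain signal of 407 in heterozygous replicate 2, against 345 to 370 on the other 7 brain arrays. Fahd1 was at 7.43 in wild type replicate 2 in brain, against 7.30 to 7.32 in the other 3 wild type mice. The kidney and heart mean of Tmem205 on ILMN_2601378 was 10.10 in wild type replicate 3, against 9.97 to 9.99 in the other 3.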

How the results depend on the processing

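Each of the 5 genotype comparisons called 0 members in limma under all 17 alternatives. Over these the number of all probes called in kidney was 14 to 50, against 30. The median kidney difference over the members was 0.0057 to 0.041 over them, against 0.03 as reported.

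The calls for array number did not hold under all alternatives. In kidney, where 2 members passed, 7 passed when the spread was fitted robustly with a trend, 6 with offset 50, 1 with the authors' processed values, and 0 without the detection filter, with the 24 arrays normalized together or with the replicate block; leaving out 1 mouse gave 0 to 2. In heart, where 1 passed, 10 passed without background correction, 10 when the spread was fitted robustly with a trend, 7 with offset 50, and 0 with the authors' processed values or the replicate block; leaving out 1 mouse gave 0 each time. The replicate block leaves little of the array number to fit, so its 0 in either organ cannot decide the point. The cause was not tested.

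Of the 100 members, 59 were also among the first 100 with the 24 arrays normalized together, 54 with kidney and heart medians within 0.5, and 92 to 99 with 1 mouse left out. Same-numbered heterozygous and wild type mice correlated at −0.0404 to 0.339 in their deviations from the group mean. The highest were number 1 in heart (0.339) and kidney (0.289) and number 4 in kidney (0.248). The others were −0.0404 to 0.0951. The labels do not say that the numbers pair mice, and whether they do was not tested. With the replicate block 0 members passed for genotype in any comparison, and 43 probes passed in kidney, against 30. The 5 members detected on 0 brain arrays have only a bound there.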
